A study of Mus musculus with 45 samples.

Results

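Ptprc, Ptpn6, Inpp5d, Vav1, Lyn, Plcg2, Rac2 and Fyb are 8 genes best known from signalling in leukocytes, and they were examined here in tuft cells sorted from the mouse small intestine. They were taken by name, through their Ensembl identifiers, from the 47729 genes of the deposited tables, and all 8 were among the 14020 genes that were tested because 6 or more of the 45 libraries held over 5 reads of them. For each gene the diets were compared at each feeding time. It was then asked whether its level across libraries followed Trpm5 and Avil, which mark tuft cells, or Cd3e, which marks T cells.

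In leukocytes these proteins act one after another below receptors at the cell surface. The Src family kinase Lyn phosphorylates receptor tails and adaptors, and the receptor phosphatase CD45, encoded by Ptprc, sets the activity of such kinases. Fyb, also called ADAP, is an adaptor that links receptors to integrins and to the actin skeleton. Vav1 is an exchange factor that loads small GTPases such as Rac2 with GTP, and Plcg2 cleaves a membrane lipid into messengers that release calcium. Ptpn6 (SHP-1) removes phosphate from tyrosines and Inpp5d (SHIP-1) removes it from an inositol lipid, and both restrain the pathway. Tuft cells are chemosensory epithelial cells in which a rise in calcium opens the channel Trpm5, and mouse intestinal tuft cells are known to carry CD45 at their surface.

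Each library came from the sorted cells of 1 male C57BL/6J mouse that was 5 weeks old at arrival, had 1 week of acclimatisation and was kept at thermoneutrality. The reference diet (RFD) had 10% fat and the high fat diet (HFD) 60% fat. At 9 weeks of feeding there were 11 mice on RFD and 11 on HFD, and at 22 weeks 11 on RFD and 12 on HFD. The labels give 9 weeks for all libraries, so the set labelled LTF was taken as the 22 weeks of the paper, and feeding time and set of libraries cannot be told apart. The labels give the sorted cells as EpCAM+CD45+ Siglec-F+, whereas the study's methods, which also name that gate, state in another place that CD45 served to leave cells out. In either case CD45, the product of Ptprc, was part of the sort, and whether CD45+ cells were kept or removed is not settled here.

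Libraries had between 189340 and 4690213 reads assigned to genes, and 2 libraries at 9 weeks had fewer than 500000. The summed level of 16 tuft markers ranged from 251.6 to 20777 CPM (reads scaled to a common library size with edgeR's TMM factors), and the libraries of mouse 80 at 9 weeks and mouse 6 at 22 weeks, both on HFD, were the lowest of their sets. In the library of mouse 80 the 4 Paneth cell markers summed to 317425 CPM. Of T cell markers, Cd3e had no read in 24 of 45 libraries and the list of 13 summed to at most 127.1 CPM in any library. The 6 myeloid markers summed to at most 333.5 CPM at 9 weeks and to 1045 CPM in mouse 31 on HFD at 22 weeks. In bulk libraries fewer tuft cells and less RNA of a gene per tuft cell cannot be told apart.

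The level of the 8 genes per transcript length put Ptpn6 first and Lyn last in both sets. At 9 weeks the medians over 22 libraries, in TPM (RSEM's transcript abundance, a unit that allows for gene length), were 338.6 for Ptpn6, 229.9 for Rac2, 140.4 for Fyb, 132.1 for Inpp5d, 129.7 for Vav1, 62.97 for Plcg2, 43.2 for Ptprc and 18.1 for Lyn. Ptpn6 was above Rac2 and Vav1 was above Plcg2 in 22 of 22 libraries, whereas Fyb, Inpp5d and Vav1 exchanged places from library to library, with Inpp5d above Vav1 in 13 of 22. At 22 weeks the medians over 23 libraries were 775.7 TPM for Ptpn6, 444.4 for Rac2, 202.5 for Vav1, 181.9 for Fyb, 164.0 for Inpp5d, 97.3 for Plcg2, 82.0 for Ptprc and 28.7 for Lyn. Ptpn6 stood above Rac2 and Rac2 above Vav1 in 23 of 23 libraries, while Ptprc was below Plcg2 in only 15 of 23. CPM, which makes no allowance for length, is used below to compare libraries for 1 gene at a time.

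The tyrosine kinase Lyn (chromosome 4 from 3678115 to 3813122, + strand; positions are those of GENCODE M21 on GRCm38) was the member with the least spread, with an SD of log2 CPM between 0.55 and 0.84 in the 4 groups where the other members had 0.78 to 1.74. At 9 weeks it ranged from 25.5 CPM over a median of 72.8 to 128 CPM on RFD and from 14.6 over 34.1 to 87.7 CPM on HFD. At 22 weeks the corresponding values were 46.9, 117.5 and 156.6 CPM on RFD and 36.2, 94.8 and 204 CPM on HFD. The diets overlapped in both sets. At 9 weeks 8 of 11 HFD libraries lay under the median of RFD and 4 under its lowest mouse, and at 22 weeks 9 of 12 lay under the median and 1, mouse 31, was above every mouse on RFD.

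Ptprc (chromosome 1 from 138062861 to 138175708, - strand), the gene of the CD45 phosphatase, reached lower levels in single libraries than any other member. On RFD at 9 weeks its lowest, median and highest levels were 31.8, 152.7 and 212 CPM, and on HFD they were 2.23, 78.0 and 151 CPM. At 22 weeks they were 6.29, 188.6 and 264 CPM on RFD and 11.3, 142.5 and 348 CPM on HFD. At 9 weeks 11 of 11 HFD libraries lay under the median of RFD, but only 3 under its lowest mouse. At 22 weeks no mouse on HFD lay below the lowest on RFD, mouse 3, and mouse 31 lay above the highest. Mouse 31 had the highest Ptprc and Lyn of its group. It also had 1049 reads of the macrophage receptor gene Csf1r where the next mouse of the group had 15. Without mouse 31, in a fit added after the data had been seen, no member was called on diet at 22 weeks. A fit with the myeloid markers over all libraries of a set is given below. The part of myeloid cells in the values of mouse 31 itself was not tested.

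Fyb (chromosome 15 from 6522853 to 6663313, + strand), the adaptor, had 95.5, 463 and 679 CPM as lowest, median and highest on RFD at 9 weeks and 15.6, 191 and 568 CPM on HFD. At 22 weeks it had 106, 410 and 633 CPM on RFD and 44.1, 343 and 513 CPM on HFD. At 9 weeks 9 of 11 HFD libraries lay under the median of RFD and 5 under all of RFD. At 22 weeks 10 of 12 lay under the median, and mouse 6 alone was below every mouse on RFD.

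The exchange factor gene Vav1 (chromosome 17 from 57279100 to 57328031, + strand) and the GTPase gene Rac2 (chromosome 15 from 78559167 to 78572783, - strand) encode successive steps. Vav1 had 122, 557 and 878 CPM as lowest, median and highest on RFD at 9 weeks and 21.1, 194 and 764 CPM on HFD, followed at 22 weeks by 202, 741 and 1282 CPM on RFD and 56.5, 501 and 931 CPM on HFD. Rac2 had 284, 1208 and 1625 CPM on RFD and 36.7, 394 and 1614 CPM on HFD at 9 weeks, and 344, 1594 and 2453 CPM on RFD and 118, 1053 and 2096 CPM on HFD at 22 weeks. The overlap of the diets was alike for both genes. In the shorter feeding 9 of 11 HFD libraries lay under the median of RFD and 5 under all of RFD, and in the longer feeding 11 of 12 and 1 did. Rac2 has close paralogs, but its expected counts were whole, within 0.005, in 45 of 45 libraries. Counts that were not whole, which the counting gives when it divides reads that match several genes, were found for Ptpn6 in 31 libraries, for Fyb in 20 and for Lyn in 17, and not for the other members.

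Plcg2 (chromosome 8 from 117498291 to 117635142, + strand), the phospholipase, ranged on RFD at 9 weeks from 121 over a median of 459 to 663 CPM and on HFD from 7.79 over 170 to 631 CPM. At 22 weeks it ranged from 128 over 522 to 792 CPM on RFD and from 45.2 over 413 to 753 CPM on HFD. On HFD 10 of 11 mice at 9 weeks and 9 of 12 at 22 weeks had less than the median of RFD, and 5 and 1 of them had less than any mouse on RFD.

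Ptpn6 and Inpp5d, the genes of the restraining phosphatases, showed the same overlap. Ptpn6 (chromosome 6 from 124720707 to 124738714, - strand) had 280, 1176 and 1789 CPM as lowest, median and highest on RFD at 9 weeks and 42.3, 421 and 1887 CPM on HFD. At 22 weeks it had 472, 1937 and 2819 CPM on RFD and 150, 1513 and 2300 CPM on HFD. Inpp5d (chromosome 1 from 87620312 to 87720507, + strand) had 63.7, 433 and 832 CPM on RFD and 14.5, 111.7 and 661 CPM on HFD at 9 weeks, and 98.7, 419 and 654 CPM on RFD and 28.3, 325 and 482 CPM on HFD at 22 weeks. For Ptpn6 10 of 11 and for Inpp5d 9 of 11 HFD libraries at 9 weeks lay under the median of RFD, 5 of them under all of RFD for each gene, and mouse 64 had more Ptpn6 than any mouse on RFD. At 22 weeks 11 of 12 lay under the median for each gene, and 1 under all of RFD.

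**Figure D1:**
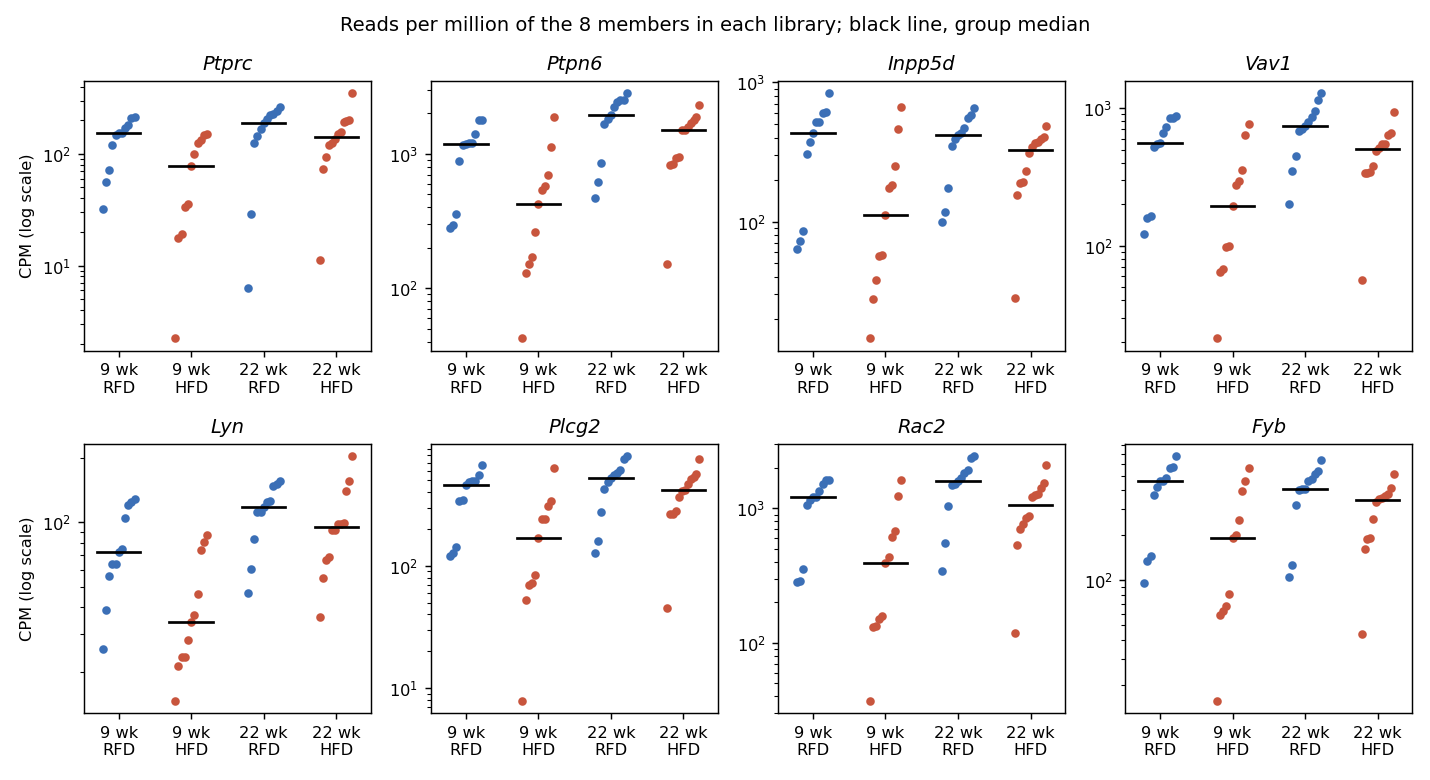
Each point is the CPM of a gene in 1 library on a log axis, with blue points for RFD, red points for HFD and a black line for the group median, by weeks of feeding. Every gene has overlapping diets, with the lowest HFD point at 9 weeks from mouse 80 for 7 of 8 genes and at 22 weeks from mouse 6 for 8 of 8.

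The same few libraries were thus low for nearly all members. At 9 weeks mouse 80 was the lowest and mouse 64 the highest of the mice on HFD for 7 of 8 genes, Lyn being the exception with mice 50 and 63. At 22 weeks mouse 6 was the lowest on HFD for 8 of 8 genes. Over the 28 pairs of members, Spearman's rho across libraries was between 0.684 (Ptpn6 with Lyn) and 0.990 (Ptpn6 with Inpp5d) at 9 weeks, with a median of 0.948, and between 0.630 (Lyn with Fyb) and 0.959 (Ptpn6 with Vav1) at 22 weeks, with a median of 0.894. These are descriptions, since all genes of a pair share the library, its depth and its cells.

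Because the members moved together, the bases upstream of their starts were read from RefSeq's GRCm38.p6 table for those it holds, which were 6 of 8 genes with 7 windows of 250 bases. Lyn and Rac2 are not in it. Ptpn6, Inpp5d and Vav1 are shown because their RefSeq starts lie within 5 bases of the gene start in GENCODE M21 and because each window holds 1 match to an 8-base ETS family motif, GAGGAAGT or CAGGAAGT on either strand, in capitals. The windows are chr6:124738710-124738959 on the - strand, chr1:87620062-87620311 on the + strand and chr17:57278850-57279099 on the + strand, all written 5′ to 3′ along the gene and ending 1 base before its start.
Ptpn6: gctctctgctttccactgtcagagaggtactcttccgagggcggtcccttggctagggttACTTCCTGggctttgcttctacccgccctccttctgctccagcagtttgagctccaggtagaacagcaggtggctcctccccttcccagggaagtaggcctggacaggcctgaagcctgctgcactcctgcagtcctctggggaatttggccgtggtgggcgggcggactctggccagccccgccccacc
Inpp5d: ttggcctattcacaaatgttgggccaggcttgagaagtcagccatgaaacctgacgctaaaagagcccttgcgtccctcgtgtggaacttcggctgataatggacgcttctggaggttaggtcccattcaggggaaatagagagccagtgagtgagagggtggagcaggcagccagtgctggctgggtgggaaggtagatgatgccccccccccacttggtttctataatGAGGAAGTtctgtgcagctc
Vav1: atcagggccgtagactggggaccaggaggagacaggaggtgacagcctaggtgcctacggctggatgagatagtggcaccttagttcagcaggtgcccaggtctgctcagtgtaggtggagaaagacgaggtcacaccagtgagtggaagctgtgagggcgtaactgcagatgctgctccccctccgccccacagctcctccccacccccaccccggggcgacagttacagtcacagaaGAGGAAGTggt
The match begins 190 bases before the start in Ptpn6, where it reads ACTTCCTG and so is CAGGAAGT on the other strand, 20 bases before it in Inpp5d and 11 bases before it in Vav1. Either motif was found for 4 of the 6 members in the table and for 5.8% of its 27025 genes, and in 5.04% of its 32851 windows. The fourth member was Ptprc, whose 2 windows overlap and share 1 match, and whose RefSeq starts lie 403 and 582 bases downstream of the gene start in GENCODE M21. The octamer ATGCAAAT, the binding sequence of the POU family to which the tuft cell regulator Pou2f3 belongs, was in 0 of the 7 windows, in neither Trpm5 nor Avil, and in 1.6% of all windows. All 3 motifs were searched on both strands and were chosen after the sequences had been seen, and a match is only a run of letters.

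In the comparison of the diets at 9 weeks, HFD against RFD gave log2 fold changes below 0 for 8 of 8 members and passed the threshold for none. The fold changes were -0.84 for Ptprc (SE 0.42), -0.94 for Ptpn6 (SE 0.47), -1.12 for Inpp5d (SE 0.53), -1.07 for Vav1 (SE 0.47), -0.89 for Lyn (SE 0.30), -0.93 for Plcg2 (SE 0.45), -1.07 for Rac2 (SE 0.48) and -0.90 for Fyb (SE 0.45). Adjusted p was between 0.131, for Lyn, and 0.290, for Ptprc (quasi-likelihood test of edgeR, adjusted over 14020 genes by Benjamini and Hochberg). Of all genes tested, 3.07% were called in either direction and 1.24% as lower on HFD. At an unadjusted p under 0.05 Inpp5d, Vav1, Lyn, Plcg2 and Rac2 were lower, 5 of 8 against 8.32% of all genes. The members' median was -0.94 where the median of all genes was -0.05. DESeq2 called Vav1, Lyn and Rac2 as lower, with a background of 5.01% lower. The tuft markers gave values of like size, -1.14 (SE 0.57, adjusted p = 0.295) for Trpm5 and -0.97 (SE 0.47, adjusted p = 0.274, edgeR) for Avil.

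After 22 weeks the log2 fold changes of HFD against RFD were smaller in size and again passed the threshold for none of the 8. They were -0.14 for Ptprc (SE 0.40), -0.44 for Ptpn6 (SE 0.32), -0.42 for Inpp5d (SE 0.33), -0.62 for Vav1 (SE 0.30), -0.16 for Lyn (SE 0.24), -0.23 for Plcg2 (SE 0.31), -0.53 for Rac2 (SE 0.32) and -0.43 for Fyb (SE 0.30). The smallest p was that of Vav1 (p = 0.0464, adjusted p = 0.477 with edgeR), which was the only member under an unadjusted 0.05. All genes had 0.728% called, 0.292% as lower on HFD, and 5.57% lower at an unadjusted p under 0.05. The members' median was -0.42 and that of all genes -0.03.

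The difference between the diet effects of the 2 sets was tested as an interaction, the effect at 22 weeks minus the effect at 9 weeks. It was above 0 for 8 of 8 members, from 0.51 for Vav1 (SE 0.57) to 0.78 for Lyn (SE 0.40), with a median of 0.68 against 0.06 over all genes. None of the 8 was called, with adjusted p of 1.00 for each (edgeR), 0 at an unadjusted p under 0.05, and 0.00713% of all genes called. A diet effect that differed between the times was therefore not detectable at this depth and spread. The biological coefficient of variation was 0.794 at 9 weeks and 0.702 at 22 weeks.

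The mice are numbered 1 to 8, by multiples of 10, or otherwise from 21 to 64, and each of these 3 series holds both diets. Mouse 84 on RFD at 9 weeks and mouse 65 on HFD at 22 weeks belong to none and are left out of the series values. The series are used here as a check for a batch, although no label calls them one. Within the series the mean log2 CPM of HFD minus that of RFD at 9 weeks was, in that order, -1.65, -1.15 and -0.34 for Ptprc, -2.35, -0.45 and -0.75 for Inpp5d, and -1.34, -0.45 and -0.53 for Lyn. All 8 members were below 0 in each of the 3 series at 9 weeks. At 22 weeks they were also below 0 in each series except for Ptprc among mice 1 to 8, at 0.31. The members moved together across libraries, so these are not separate results, and no share of all genes was computed for them. On RFD at 9 weeks the 3 mice numbered by multiples of 10 had a mean of 6.21 log2 CPM of Inpp5d against 8.61 and 9.30 in the other series, and they had the lowest levels of the tuft markers Trpm5 and Avil combined on that diet. On HFD the 5 lowest were mice 80, 6, 50, 8 and 70, from 2 of the series. The part of the series in the diet values was not tested beyond these within-series differences and the fit with the series as a term.

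The members followed the tuft markers across libraries. A tuft index, the mean of the z-scored log2 CPM of Trpm5 and Avil, was fitted together with diet and with the log2 CPM of Cd3e, each index scaled to an SD of 1. Per SD of the tuft index at 9 weeks, log2 expression rose by 1.31 for Ptprc (SE 0.15), 1.44 for Ptpn6 (SE 0.09), 1.68 for Inpp5d (SE 0.11), 1.46 for Vav1 (SE 0.09), 0.59 for Lyn (SE 0.14), 1.44 for Plcg2 (SE 0.12), 1.47 for Rac2 (SE 0.10) and 1.41 for Fyb (SE 0.10). All 8 passed the threshold, with adjusted p up to 0.00437 for Lyn, where 13.7% of all genes had a coefficient above 0 that passed (edgeR). With the number series as a further term Lyn no longer passed, at 0.48 (SE 0.23, adjusted p = 0.403 with edgeR). At 22 weeks the coefficients were 1.15 for Ptprc (SE 0.17), 0.97 for Ptpn6 (SE 0.05), 1.02 for Inpp5d (SE 0.06), 0.89 for Vav1 (SE 0.06), 0.56 for Lyn (SE 0.09), 0.94 for Plcg2 (SE 0.06), 0.97 for Rac2 (SE 0.07) and 0.88 for Fyb (SE 0.07). Again 8 of 8 passed, with adjusted p up to 4.48e-05, against 12.8% of all genes. The median coefficient of the members was 1.44 at 9 weeks and 0.95 at 22 weeks, and that of all genes was -0.11 and 0.03. The members were chosen with earlier results of these data known. Where their counts, here and elsewhere, are set beside shares of all genes, this is a description only.

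**Figure D2:**
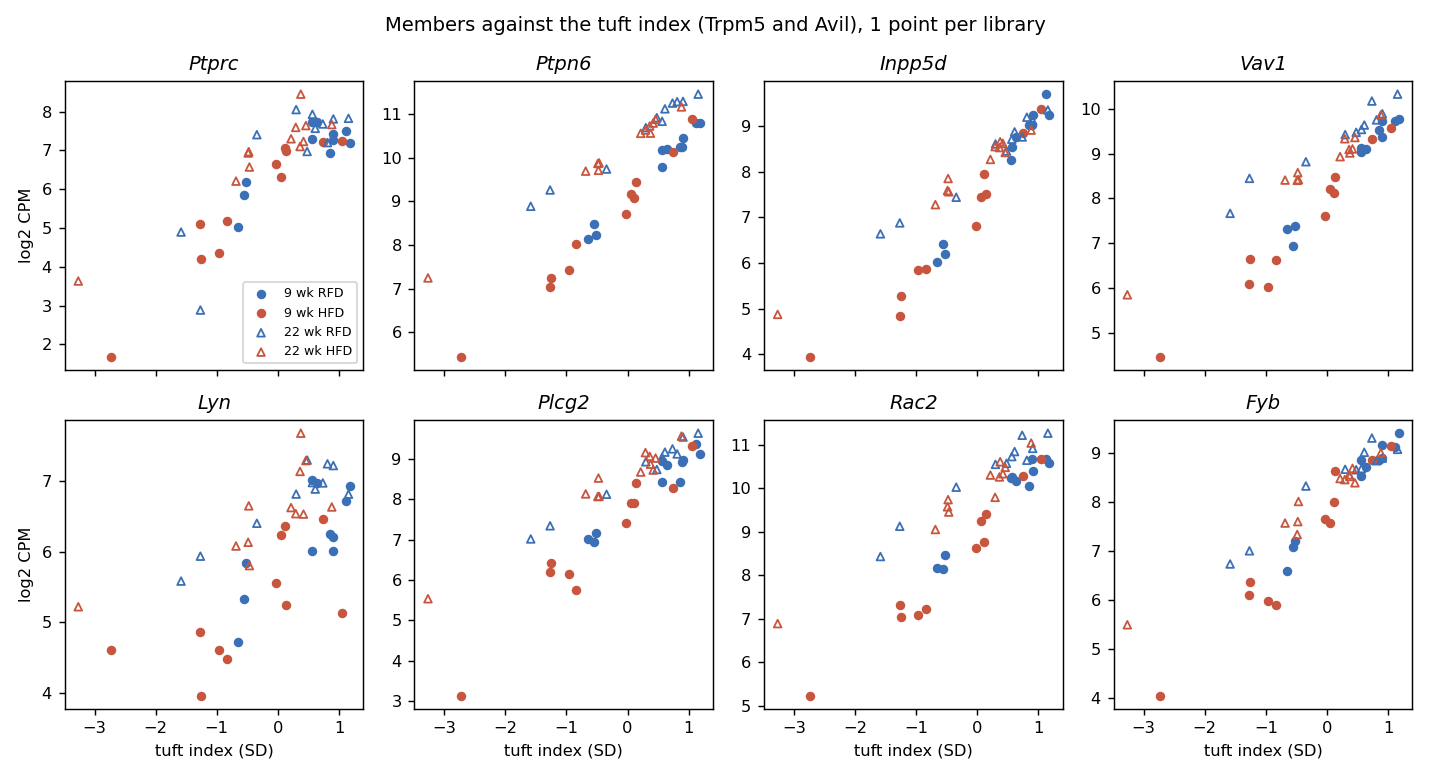
Each point is 1 library, with the tuft index in SD of its own set on the x axis and the log2 CPM of the gene on the y axis; circles are 9 weeks, triangles 22 weeks, blue RFD and red HFD. The points of Ptpn6, Inpp5d, Vav1, Plcg2, Rac2 and Fyb lie close to 1 line in each set, whereas Lyn, with a coefficient of 0.59 and 0.56, and Ptprc scatter more.

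The coefficient of Cd3e in the same fits was near 0 for every member. It lay between -0.05 for Plcg2 and 0.10 for Lyn at 9 weeks and between -0.05 for Plcg2 and 0.17 for Lyn at 22 weeks, and 0 of 8 passed in either set, with every adjusted p at 1.00 (edgeR). Of all genes 0.00713% and 0.314% passed, and at 9 weeks this was 1 gene, Cd3e itself. Cd3e had no read in 24 of 45 libraries, so hardly any gene could pass at 9 weeks. The 0 of 8 at that time therefore decides little about T cells. At an unadjusted p under 0.05 only Lyn at 22 weeks was found (p = 0.0326). The tuft coefficient minus the Cd3e coefficient was above 0 and passed for 7 of 8 members at 9 weeks and for 8 of 8 at 22 weeks, where 7.54% and 6.55% of all genes did. Lyn was the exception at 9 weeks, at 0.49 (SE 0.20, adjusted p = 0.155), and at 22 weeks it had 0.39 (SE 0.11, adjusted p = 0.0260, edgeR). This call of Lyn at 22 weeks was lost without mouse 6, where the difference was 0.26, with the number series as a term (0.28), with no filter on low counts (0.38) and with myeloid markers in place of Cd3e (0.31). Cd3e had at most 32 reads in a library, so a T cell share too small to give Cd3e reads is below what these libraries can measure.

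Taken gene by gene, Spearman's rho of the members with Trpm5 over the 22 libraries at 9 weeks was 0.986 for Inpp5d, 0.983 for Ptpn6, 0.977 for Vav1, 0.958 for Rac2, 0.956 for Fyb, 0.946 for Plcg2, 0.832 for Ptprc and 0.715 for Lyn. Over the 23 libraries at 22 weeks it was 0.963 for Ptpn6, 0.954 for Inpp5d, 0.937 for Vav1, 0.928 for Rac2, 0.927 for Fyb, 0.904 for Plcg2, 0.708 for Lyn and 0.676 for Ptprc. With Avil the range was 0.756 to 0.974 at 9 weeks and 0.735 to 0.983 at 22 weeks. Each of these 32 correlations passed in permutation tests with 100000 resamples, with p adjusted over 48 pairs from 1.85e-05 to 0.000735. Where it was 1.85e-05, the unadjusted p was the smallest that the resamples can give. With Cd3e rho ran from 0.167 to 0.275 at 9 weeks (adjusted permutation p 0.314 to 0.535) and from -0.039 to 0.170 at 22 weeks (0.522 to 0.861), and 0 of 16 passed.

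Pearson's r with Trpm5 ran from 0.752 to 0.988 at 9 weeks and from 0.816 to 0.992 at 22 weeks. With the 2 libraries farthest from the median of Trpm5 left out, r ran from 0.739 to 0.989 and from 0.677 to 0.984, so that the relation did not rest on those libraries. With Avil and its 2 farthest libraries left out, the ranges were 0.778 to 0.990 and 0.711 to 0.963. Ptprc was the member most affected within diets. Its rho with Trpm5 was 0.400 among 11 mice on RFD and 0.945 among 11 on HFD at 9 weeks, and 0.518 and 0.818 at 22 weeks, while Ptpn6 stayed between 0.927 and 0.965 in the 4 groups. Within the number series Ptprc at 22 weeks had rho of 0.881, 0.829 and 0.071 with Trpm5 over 8, 6 and 8 libraries, and Lyn had 0.857, -0.029 and 0.286, so for both genes the relation at this time did not hold in every series.

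**Figure D3:**
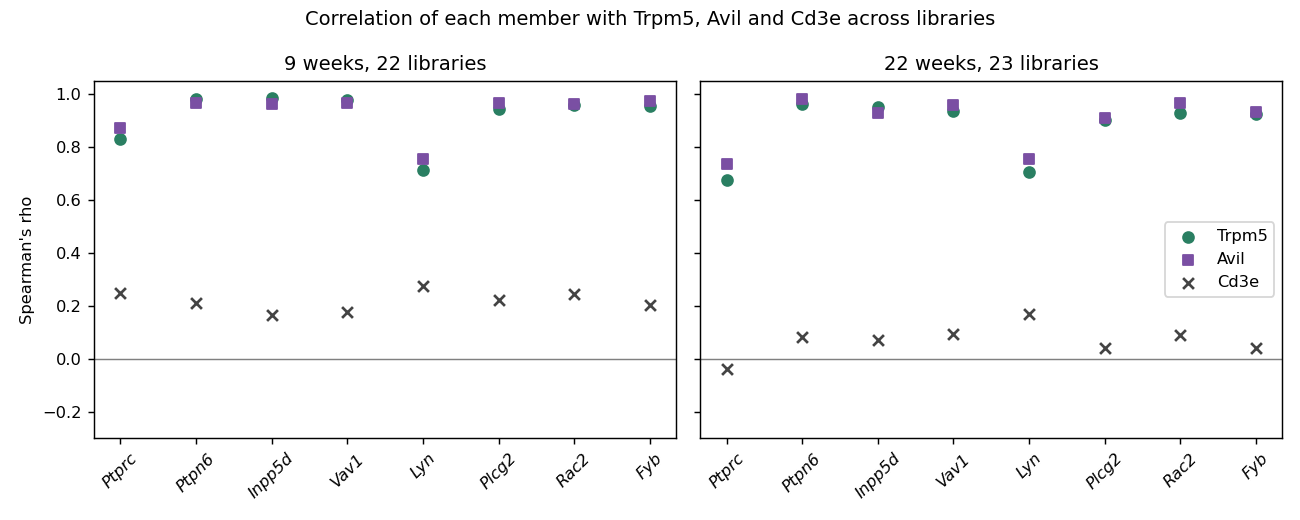
Spearman's rho of each of the 8 genes with Trpm5 (circles), Avil (squares) and Cd3e (crosses) over the 22 libraries at 9 weeks, left, and the 23 at 22 weeks, right. Circles and squares lie between 0.676 and 0.986 and crosses between -0.039 and 0.275.

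Ranked by rho with Trpm5 among the other 14019 genes, which had a median of -0.124 at 9 weeks and 0.049 at 22 weeks, Inpp5d was number 3 and Ptpn6 number 8 at 9 weeks, and Ptpn6 was number 1 and Inpp5d number 7 at 22 weeks. Vav1 was at 16 and 26, Rac2 at 64 and 39, Fyb at 68 and 42, and Plcg2 at 105 and 102. Lyn at 1229 and 960 and Ptprc at 630 and 1162 stood well behind. The 99th percentile of all genes was 0.935 at 9 weeks and 0.893 at 22 weeks, and 6 of the 8 members were above it at each time. That count too is a description, since the members were chosen with earlier results known.

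Lists of leukocyte markers gave lower values than the tuft markers, and lists of other epithelial cells gave values of both signs. The rho of the members with the summed CPM of 13 T cell markers was between 0.03 and 0.21 at 9 weeks and between 0.00 and 0.16 at 22 weeks. With the 6 myeloid markers it was between 0.03 and 0.37, highest for Ptprc, and between -0.16 and 0.16. The lists of 5 B cell, 4 eosinophil and 4 mast cell markers gave at most 0.10 for any member at 9 weeks. At 22 weeks Lyn had 0.35, 0.44 and 0.45 with them, the highest of the 8 for each. These lists had few reads at 22 weeks. Their highest library had 26.1, 13.8 and 1.11 CPM on RFD and 45.6, 20.4 and 2.50 CPM on HFD, in that order. The mast cell median was 0 on both diets, so many libraries were tied in that ranking. Eosinophils carry Siglec-F in mice, and their part in the level of Lyn was not tested. With the 4 Paneth cell markers rho was from -0.79 to -0.50 and from -0.49 to -0.31. Goblet markers gave -0.40 to -0.20 and -0.43 to -0.22, and enterocyte markers 0.00 to 0.21 and -0.27 to -0.03. Enteroendocrine markers gave 0.40 to 0.59 and 0.38 to 0.65. With 3 general epithelial markers rho was from 0.69 to 0.93 and from 0.60 to 0.92. That sum was carried by Krt8, with a median of 19611 reads against 1427 for Epcam and 325 for Cdh1. The 4 M cell markers gave 0.71 to 0.97 and 0.68 to 0.88, although Gp2, which defines M cells, had a read in only 8 of 45 libraries and the sum was carried by Spib. When the mean of the myeloid markers replaced Cd3e in the fit, its coefficient passed for 1 of 8 members at 9 weeks, Ptprc at 0.32 (SE 0.09, adjusted p = 0.0964, edgeR), and for none at 22 weeks, where Ptprc had 0.17 (SE 0.11) and Lyn 0.19 (SE 0.07, adjusted p = 0.544). Of all genes 1.28% and 0.87% passed. Paneth reads thus moved opposite to the members over these libraries, and the part of Paneth cells was not tested.

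With the tuft index held constant, the diet difference at 9 weeks was smaller in size for each member. At 9 weeks the log2 fold change of HFD against RFD in the fit with the index was -0.05 for Ptprc (SE 0.24), -0.05 for Ptpn6 (SE 0.15), -0.03 for Inpp5d (SE 0.19), -0.12 for Vav1 (SE 0.17), -0.05 for Plcg2 (SE 0.19), -0.20 for Rac2 (SE 0.17) and 0.00 for Fyb (SE 0.17). Lyn kept the largest value, -0.38 (SE 0.27). None of the 8 passed, where 0.107% of all genes did, and none had an unadjusted p under 0.05. At 22 weeks the values ranged from -0.32 for Vav1 (SE 0.10) to 0.32 for Ptprc (SE 0.25), with -0.20 for Rac2 (SE 0.11). Diet alone had given -0.62 for Vav1, -0.14 for Ptprc and -0.53 for Rac2, so the value of Ptprc was larger in size with the index. Vav1 had p = 0.00484 and an adjusted p of 0.199 in edgeR, and none passed where 1.23% of all genes did. A library's tuft index was measured on the same mice as the diet, so this fit does not say whether diet acted through it.

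**Figure D4:**
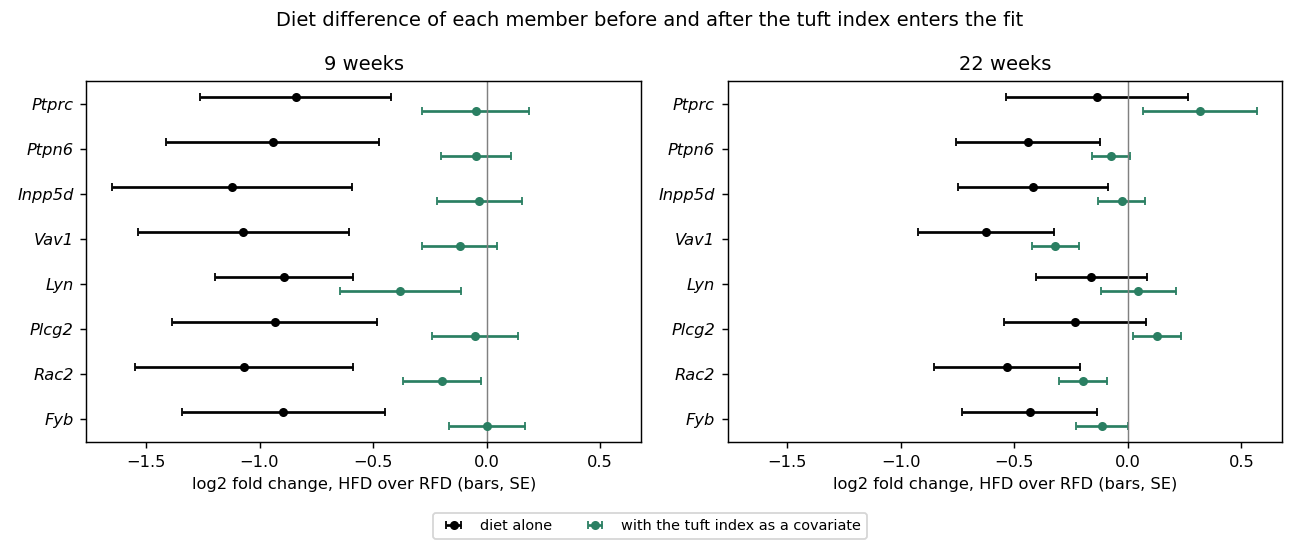
Log2 fold change of HFD over RFD for each gene, with bars of 1 SE, from the fit of diet alone (black) and with the tuft index as a covariate (green), at 9 weeks, left, and 22 weeks, right. At 9 weeks the black points lie between -1.12 and -0.84 and the green points between -0.38 and 0.00.

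The libraries of 22 weeks were also set against those of 9 weeks on the same diet. On RFD the log2 differences ran from -0.32 for Inpp5d (SE 0.46) to 0.52 for Ptpn6 (SE 0.42), and 0 of 8 were called, where 1.55% of all genes were (0 of 8 also at an unadjusted p under 0.05). On HFD they were all above 0, from 0.26 for Fyb (SE 0.39) to 1.08 for Ptpn6 (SE 0.42, adjusted p = 0.149), and only Lyn passed, at 1.01 (SE 0.28, adjusted p = 0.0333, edgeR), with 3.34% of all genes called as higher. With limma on log2(TPM + 1) 6 of 8 passed on HFD, against 10.6% of all genes above 0. The call of Lyn was lost with the tuft index as a covariate, where Lyn had 0.62 (SE 0.21, adjusted p = 0.103, edgeR). It was also lost with a replicate block on the mouse number. The numbers mark different mice at 9 and 22 weeks, so the loss under the block says little about Lyn.

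At a like tuft index a different set of members stood out between the 2 sets. With the index over all 45 libraries as a covariate, an alternative added after the data had been seen, Ptpn6 was higher at 22 weeks by 0.70 on RFD (SE 0.10, adjusted p = 4.96e-06) and by 0.62 on HFD (SE 0.10, adjusted p = 0.000145). Rac2 was higher by 0.45 on RFD (SE 0.12, adjusted p = 0.0251) and by 0.41 on HFD (SE 0.12, adjusted p = 0.0621). Vav1 was called on RFD, at 0.42 (SE 0.11, adjusted p = 0.0263), and had 0.23 on HFD (SE 0.12, adjusted p = 0.361; all with edgeR). Thus 3 of 8 members were called on RFD against 3.07% of all genes above 0, and 2 of 8 on HFD against 2.92%. Inpp5d, Ptprc and Fyb, by contrast, lay between -0.18 and 0.17 in both diets.

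The genes most alike to each member were found by Spearman's rho of log2 CPM over all 45 libraries after the mean of each set had been removed. Tuft markers and members filled many of these places. For Ptpn6 they included Trpm5 (0.990) and Tmem176a (0.984), and for Rac2 Tmem176a (0.986) and Lrmp (0.984). Inpp5d had Trpm5 (0.983), Trak1 (0.982) and Ptpn6 (0.977), and Vav1 had Sh2d6 (0.988), Alox5ap (0.985) and Snrnp25 (0.982). Plcg2 was closest to Avil (0.968), the leukotriene enzyme gene Alox5 (0.966) and Vav1 (0.960), and Fyb to Avil (0.981), Cdhr2 (0.976) and Myo15b (0.974).

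Ptprc and Lyn again differed. Ptprc had the prostaglandin enzyme gene Ptgs1 (0.915), Cd24a (0.908) and Siglecf (0.891) as its nearest genes, and Siglecf encodes another marker of the sort. Lyn had 4930539E08Rik (0.821), Siglecf (0.801) and Ampd3 (0.794). A rho above 0.9 was found with 2 genes for Ptprc and with none for Lyn, whereas each of the other 6 members had between 136 and 237 such genes.

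Lists of 77 other genes of the same pathway classes were drawn up, of which 67 were tested. Among them the tuft coefficient passed above 0 for 17 (25.4%) at 9 weeks and for 20 (29.9%) at 22 weeks, beside 13.7% and 12.8% of all genes. These shares are a description, since the lists hold the tuft markers Siglecf and Sh2d6 and were drawn up with earlier results known. For 15 it passed in both sets. Among them were the kinase gene Bmx, the adaptor genes Blnk, Skap2, Dok2, Sh2d6 and Sh2d7, the lipid and calcium signalling genes Plcb2, Pik3cg, Pik3r5 and Itpr2, the phosphatase genes Ptpn18 and Ptprj, the kinase gene Csk, which restrains Src family kinases, and the receptor gene Siglecf. Their names and those of the low genes below were taken after the values had been seen.

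Several relatives of the members had much lower levels than the member. Fyn, a Src family kinase gene like Lyn, was at 0 TPM in both medians and Fgr at 0 and 0.45, where Lyn had 18.1 and 28.7. Rac2 had 229.9 and 444.4 TPM against 6.53 and 9.57 for Rac1, whose counts were not whole in 40 libraries and whose tuft coefficients of 0.22 (SE 0.21) and 0.14 (SE 0.14) did not pass. Plcg1 had 0.635 and 0.91 TPM against 62.97 and 97.3 for Plcg2. Skap2, which can bind the product of Fyb, had 250.5 and 373.8 TPM, and Skap1 had 0.12 and 1.13. The kinase gene Syk, which in B cells and mast cells acts between Lyn and Plcg2, had 0.675 and 0.90 TPM. In all, 28 of the 77 genes had a median under 1 TPM in both sets, among them Zap70, Btk, Lcp2, Lat, Lat2, Dock2, Pik3cd and Tyrobp. Cdc42, a GTPase of most cells, had 106.0 and 164.7 TPM and tuft coefficients of -0.16 (SE 0.11) and -0.04 (SE 0.07).

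**Figure D5:**
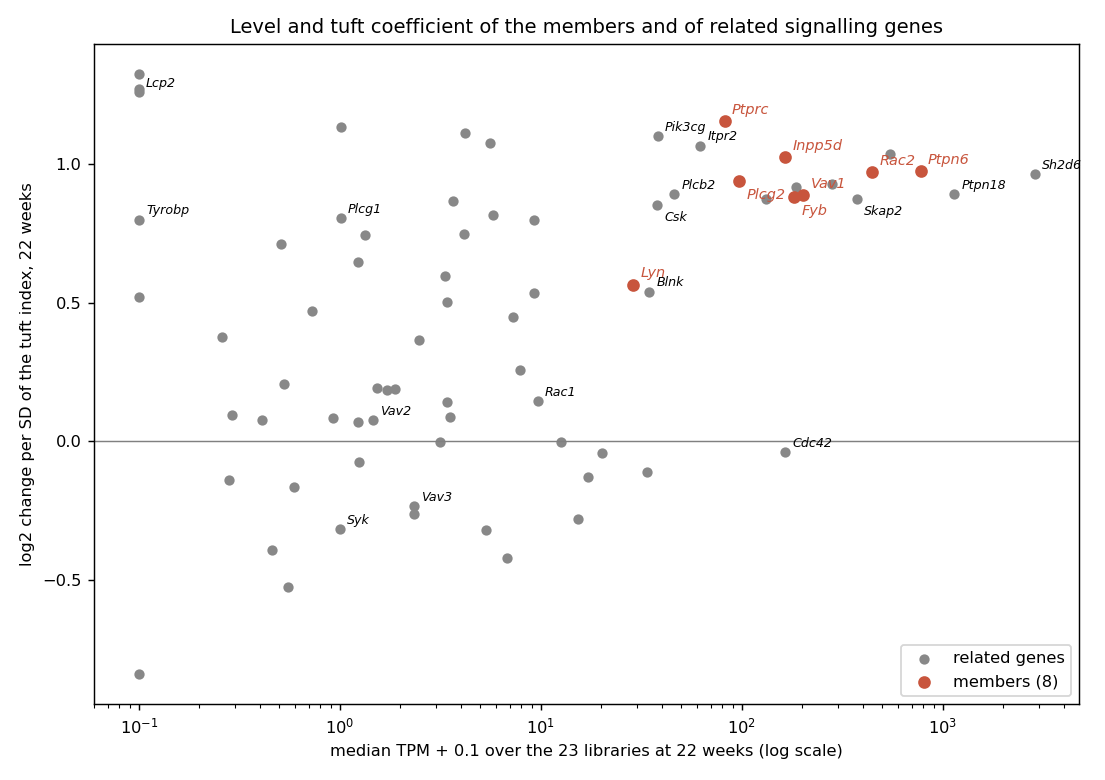
Each point is a gene at 22 weeks, with its median TPM plus 0.1 over 23 libraries on the x axis (log scale) and its log2 change per SD of the tuft index on the y axis; the 8 genes are in red and tested related genes in grey. The red points have coefficients from 0.56 (Lyn) to 1.15 (Ptprc), and Sh2d6 and Ptpn18 lie among the highest in TPM.

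Diet comparisons of these 67 genes gave 2 higher and 3 lower on HFD at 9 weeks, and 1 higher at 22 weeks, where 3.07% and 0.728% of all genes were called. At 9 weeks the kinase gene Lck had -2.97 (SE 0.82, adjusted p = 0.0766), with a median of 5.27 CPM on RFD and 0 on HFD, the receptor phosphatase gene Ptprj -1.35 (SE 0.38, adjusted p = 0.0769) and the kinase gene Prkcb -1.85 (SE 0.53, adjusted p = 0.0818). The kinase gene Yes1 rose by 1.31 (SE 0.38, adjusted p = 0.0836) and the phosphatase gene Ptpn2 by 1.01 (SE 0.30, adjusted p = 0.0904; all with edgeR). Yes1 was also the gene of the lists with a tuft coefficient that passed below 0 in both sets, at -0.48 (SE 0.20) and -0.42 (SE 0.13). At 22 weeks Fcgr3, an Fc receptor gene of myeloid and natural killer cells, was called at 5.90 (SE 1.498, adjusted p = 0.0768), but 256 of its reads were in mouse 31 while 8 of 12 mice on HFD had none and the next had 3.

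Where no gene of a list was called, those with the smallest p were the kinase genes Bmx (-1.05, SE 0.42 at 9 weeks) and Tec (-0.53, SE 0.37 at 22 weeks), the adaptor genes Blnk (-0.97, SE 0.31) and Shc1 (0.83, SE 0.28), and the actin regulators Was (-1.82, SE 0.59) and Rac1 (-0.96, SE 0.32), the last 4 at 9 weeks. Their adjusted p values were between 0.106 and 0.658 in edgeR. The lists' median log2 fold change was -0.47 at 9 weeks and -0.16 at 22 weeks, against -0.94 and -0.42 for the 8 members and -0.05 and -0.03 for all genes.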

How the data were processed

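Cells labelled EpCAM+CD45+ Siglec-F+ were amplified with Smart-seq2, although the methods also describe CD45 as used to exclude cells. Per the submitters' processing notes, the authors used cutadapt 1.15, STAR 2.6.0 and RSEM on GRCm38; the annotation is not given in the sources used here. The deposited tables hold RSEM expected counts, which were rounded, and TPM values; 24 columns matched no sample and were not used. Of expected counts above 0, 8.79% were not whole because RSEM divides reads that match several genes. The authors' weighting by estimated cell shares was not repeated. Symbols and positions came from GENCODE M21.

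Genes with more than 5 reads in at least 6 libraries were tested with edgeR 4.0.16 (TMM, quasi-likelihood, Benjamini-Hochberg, threshold 0.1). The code was checked on simulated data with less spread and larger changes than the members had. That check therefore does not measure what could be detected for the members. TPM, in log2(TPM + 1), entered limma 3.58.1, and DESeq2 1.42.0 was an alternative. Correlations used log2 CPM (prior count 2), ranks from SciPy 1.17.1 and two-sided permutation tests with 100000 resamples in NumPy 2.4.6. All members were named; of each related list, the genes called on diet or else up to 2 with the smallest p; and the 3 genes nearest each member. Some of these genes are not reported here. The members and lists were chosen with earlier results of these data known. By the paper's methods mice shared cages, each cage belonged to a single group, and the kills were spread over consecutive days. No label gives the cage or the day of a mouse. The tests therefore took mice as independent and made no allowance for cage. Each p-value describes the spread between mice of this series.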

Additional observations from a re-analysis of the deposited data

How the results depend on the processing

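No called result changed sign under any alternative run. Of the diet values of members, 2 of 104 changed sign at 9 weeks (Fyb, at 0.00 and 0.01 with the tuft index) and 9 of 104 at 22 weeks (Ptprc, Lyn and Plcg2 with the tuft index, and Ptprc with limma), and none of these was called. In the alternatives that moved the rank correlations, 4 at 9 weeks and 3 at 22 weeks, all those with Trpm5 and Avil passed, with rho from 0.623 to 0.986, and none with Cd3e did. The count of members called differed from that reported in few settings. At 9 weeks DESeq2 called 3 members on diet instead of 0. With the tuft index as a covariate, 3 were called between the sets on RFD instead of 0. Between the sets on HFD 1 was called, beside 3.34% of all genes as higher. There the tuft index as a covariate gave 2, beside 2.92%, and limma on log2(TPM + 1) gave 6, beside 10.6%. DESeq2 gave 2, the number series as a term 2 and the replicate block 0. For these last settings no share of all genes was computed, so their counts cannot be set against one. Myeloid markers in place of Cd3e gave 1 member at 9 weeks instead of 0. The replicate block was fitted because the sets share mouse numbers, and its interactions ran from 1.09 to 2.26 with 0 called. The numbers mark different mice: over 16 same-numbered pairs the deviations correlated from -0.384 to 0.383, with 2 above 0.1. RFD and HFD share no numbers within a set, so the block could not enter the diet comparisons. Without mouse 80, added after the data had been seen, the diet values at 9 weeks ran from -0.997 to -0.72. Without mouse 6, also added then, those at 22 weeks ran from -0.51 to -0.02. In each set 0 were called on diet and 8 of 8 tuft coefficients still passed. No share of all genes was computed for these fits. For single genes, 7 calls were lost in the alternatives, all of them of Lyn. Depth limits Cd3e, which had at most 32 reads.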
